A study of Mus musculus with 12 samples.

Results

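The Slc35 genes described here encode 10 transporters of the ER and Golgi membranes: Slc35a1, Slc35a2, Slc35a3, Slc35b1, Slc35b2, Slc35b3, Slc35b4, Slc35c1, Slc35c2 and Slc35d1. They were looked up by gene name, and all 10 were found among the 24189 genes listed in the plasmablast (PB) and plasma cell (PC) libraries. The data comprise 10 mouse RNA-seq libraries from 5 groups, with 2 libraries for each group, and 2 lists of Mist1 peaks. The PBs were obtained on day 8 of iGB culture, which received IL-4 and then IL-21. In this culture, splenic B cells differentiate on 40LB feeder cells, fibroblasts that display BAFF and CD40 ligand. The PBs were isolated by a sort that included CD138+ and CD23- gates. They came from Xbp1 fl/fl mice (control PBs), from Cd23-Cre Xbp1 fl/fl mice (Xbp1-deficient PBs), in which Cre begins to delete the floxed alleles in immature B cells, and from Bhlha15 CreER/CreER mice (Mist1-deficient PBs), in which CreER is inserted into both copies of Bhlha15, the gene for the transcription factor Mist1. The PCs were isolated with a TACI+CD138+ gate from spleens 7 days after immunization with NP-KLH, and came from mice labelled wildtype and from Cd23-Cre Bhlha15 fl/fl mice (Mist1-deficient PCs). The study's methods give the control PCs as Bhlha15 fl/fl without Cre, and the Xbp1 fl/fl PBs served as control for both mutant PB genotypes. The study asked which genes depend on Xbp1, the transcription factor of the unfolded protein response, and which on Mist1.

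Glycosyltransferases and sulfotransferases of the secretory pathway work inside the ER and Golgi, whereas most of their activated substrates are made in the cytosol or nucleus. Slc35 proteins carry these substrates across the membrane in exchange for the spent nucleotide that leaves the lumen. Plasma cells glycosylate every antibody molecule in the ER and trim and extend its N-glycan in the Golgi, where galactose, fucose and sialic acid are added. Not all of the 10 proteins carry nucleotide sugars. Slc35b1 exchanges ATP for ADP across the ER membrane and thereby supplies the ATP-driven chaperones of the ER, and Slc35b2 and Slc35b3 carry PAPS, the sulfate donor. Of the others, Slc35a1 carries CMP-sialic acid, Slc35a2 UDP-galactose, Slc35a3 UDP-GlcNAc, Slc35b4 UDP-xylose and UDP-GlcNAc, Slc35c1 GDP-fucose, and Slc35d1 UDP-glucuronic acid (UDP-GlcA) and UDP-GalNAc. Slc35c2 has been linked to GDP-fucose supply and to the fucosylation of Notch.

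Gene-wide TPM separated the groups as labelled for Bhlha15. It measured 176 and 159 TPM in control PBs and 0.210 and 0.551 TPM in Mist1-deficient PBs, and 258 and 242 TPM in wildtype PCs compared with 14.4 and 16.6 TPM in Mist1-deficient PCs. Bhlha15 also fell to 3.57 and 2.60 TPM in Xbp1-deficient PBs. Xbp1 itself measured 3168 and 3043 TPM in control PBs and 1981 and 2024 TPM in Xbp1-deficient PBs, a value over the whole gene that does not show whether the deleted exons are missing. All 10 markers of a plasma cell list reached at least 1 TPM in every group. Their summed level was 42602 and 42605 TPM in control PBs, 22343 and 21642 TPM in Xbp1-deficient PBs and 92198 to 99373 TPM in PCs. Most of the sum, which includes Xbp1 itself, came from Igj and Mzb1, with means of 22087 and 15284 TPM in control and 14078 and 3627 TPM in Xbp1-deficient PBs. The means of Prdm1 and Irf4 were 190 and 667 TPM in control and 268 and 918 TPM in Xbp1-deficient PBs, and those of Sdc1, which encodes CD138, were 161 and 157 TPM. The 8 fibroblast markers, which the mouse feeder cells may carry into a sort, summed to 855 to 1647 TPM in PBs and to 2.28 to 2.84 TPM in PCs. The 7 neutrophil markers found summed to 121 and 120 TPM in Xbp1-deficient PBs, to 1.08 to 8.41 TPM in the other PBs and to 439 to 938 TPM in PCs.

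The sequences around the start sites are shown for the members on which the comparisons turn. The first pair are RefSeq promoters (GRCm38.p6), each from 250 bases before to 50 bases after the start, on the coding strand. Slc35b1, on chr11:95384606-95384905 (plus strand), was the member with the largest change, and Slc35c1, on chr2:92460469-92460768 (minus strand), is shown because it held the most copies of CCACG, a part of the ER stress element that Xbp1 and ATF6 are known to bind. Capitals mark CCACG on either strand.
Slc35b1 promoter: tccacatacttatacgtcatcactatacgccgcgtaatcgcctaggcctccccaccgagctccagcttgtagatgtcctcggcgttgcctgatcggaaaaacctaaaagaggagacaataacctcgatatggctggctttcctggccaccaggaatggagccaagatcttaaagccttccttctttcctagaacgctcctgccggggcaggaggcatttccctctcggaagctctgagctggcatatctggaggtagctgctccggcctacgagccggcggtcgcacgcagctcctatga
Slc35c1 promoter: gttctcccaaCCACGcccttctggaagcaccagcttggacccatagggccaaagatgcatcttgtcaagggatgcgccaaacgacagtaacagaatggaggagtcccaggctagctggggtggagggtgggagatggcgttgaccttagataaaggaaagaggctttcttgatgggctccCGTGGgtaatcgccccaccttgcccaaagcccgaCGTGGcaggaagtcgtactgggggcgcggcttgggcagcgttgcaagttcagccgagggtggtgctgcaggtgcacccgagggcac
Of the 13 RefSeq promoters of the 10 members, none held the full ER stress element (ERSE), ERSE-II or the unfolded protein response element TGACGTGG. These motifs were searched as exact letters on both strands and stood in 0.119%, 0.0365% and 0.676% of all 32851 promoters. CCACG, which forms part of ERSE and ERSE-II, stood in 32.8% of all promoters and in those of 3 members. It occurred 3 times in the Slc35c1 promoter, with the first base of the match on the coding strand at -240, -70 and -36 from the start site, and 1 time each in a promoter of Slc35b2 and of Slc35b3.

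Mist1 peaks had been mapped by Bio-ChIP, a streptavidin pull-down of biotin-tagged Mist1, in 2 experiments with PBs after 4 days of LPS stimulation, a culture other than the iGB system. These PBs carried Bhlha15(fl/fl) R26(BirA/BirA), in which the floxed allele bears the biotin acceptor tag and the BirA ligase attaches the biotin. The 2 lists of 29413 and 30247 peaks shared 23806 regions, and they give positions only, without peak height. A common region lay within 1 kb of a transcription start site (TSS) of 6 of the 10 members, namely Slc35a1, Slc35b1, Slc35b2, Slc35b4, Slc35c2 and Slc35d1, compared with 63% of the protein-coding genes tested in PBs and 35.7% of all protein-coding genes. A common region lay within 10 kb of 8 of the members, compared with 80.9% of the protein-coding genes tested in PBs and 54% of all. The share among the members was thus near that of expressed genes in general. Slc35b3 and Slc35c1 had no common region within 10 kb.

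**Figure D1:**
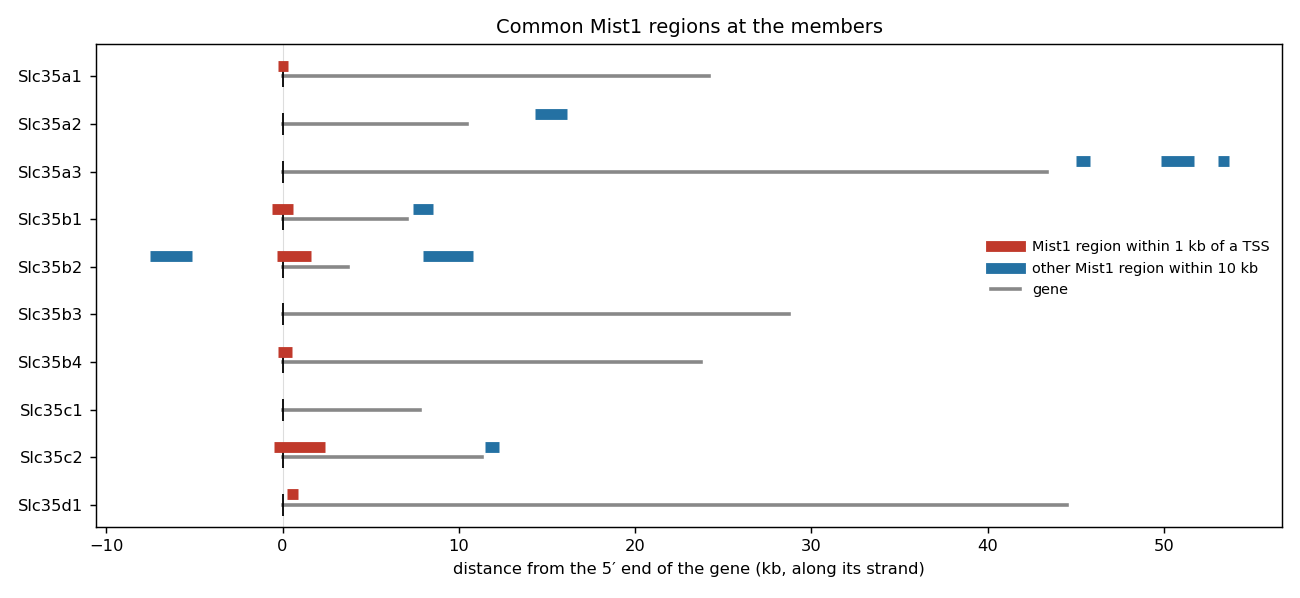
Common Mist1 regions (thick bars, red where within 1 kb of a TSS and blue elsewhere within 10 kb) at the 10 members, drawn along each gene (grey line) by the distance in kb from its 5′ end (vertical tick). Regions lie at a TSS of 6 members, the widest at Slc35c2, and Slc35b3 and Slc35c1 have none.

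The next pair of sequences are the central 300 bases of the common regions at the TSS of Slc35b1, the most abundant member, and of Slc35c2, the member with the largest fall in Mist1-deficient PCs. They were read from mm9, the build of the peak lists, on the strand of each gene. The Slc35b1 window, chr11:95245839-95246138 (plus strand), holds 133 bases of annotated exon, and the Slc35c2 window, chr2:165112266-165112565 (minus strand), lies outside the exons. Capitals mark E-boxes (CANNTG), the letters bound by basic helix-loop-helix factors such as Mist1.
Slc35b1 region: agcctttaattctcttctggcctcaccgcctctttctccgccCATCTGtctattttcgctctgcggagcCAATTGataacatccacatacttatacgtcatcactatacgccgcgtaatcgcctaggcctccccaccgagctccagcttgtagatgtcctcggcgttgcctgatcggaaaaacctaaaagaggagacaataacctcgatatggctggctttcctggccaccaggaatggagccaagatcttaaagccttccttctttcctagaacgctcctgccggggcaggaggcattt
Slc35c2 region: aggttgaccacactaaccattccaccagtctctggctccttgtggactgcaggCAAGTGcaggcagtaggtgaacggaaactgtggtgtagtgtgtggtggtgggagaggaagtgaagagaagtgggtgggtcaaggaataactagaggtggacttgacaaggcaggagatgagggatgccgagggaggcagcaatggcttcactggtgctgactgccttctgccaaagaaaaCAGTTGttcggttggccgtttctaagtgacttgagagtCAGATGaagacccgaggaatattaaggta
The Slc35b1 window contained 2 E-boxes and the Slc35c2 window 3, compared with a median of 2 over the central 300 bases of all common regions, of which 87.5% held at least 1. Neither window held the form CAGCTG, a palindrome that was found in 36.9% of all such windows. Over its full width of 2871 bp, the region at Slc35c2 was the widest of those at a TSS of a member and contained 20 E-boxes, 3 of them CAGCTG. The region at Slc35b1 was 1169 bp wide and contained 4 E-boxes and no CAGCTG.

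All 10 members were expressed in every library. TPM correct for gene length, so that levels can be compared between members, and the level of Slc35b1 stood far above that of the others. Slc35b1 measured 737 and 684 TPM in control PBs and thereby exceeded 99.3% of all genes listed. Its share of the summed TPM of the 10 members was 63.7% and 62.2% in these libraries. Slc35d1 was the lowest member in every library, with 6.15 to 11.8 TPM over the 10 libraries. Between them, the order of mean levels in control PBs was Slc35c2, Slc35b2, Slc35a2, Slc35a3, Slc35c1, Slc35b4, Slc35a1 and Slc35b3, and no neighbours in this order overlapped between their 2 libraries. In wildtype PCs, Slc35c1 rose in this order and overlapped with Slc35b2, and Slc35a3 fell to the place above Slc35d1. Slc35b3 overlapped with Slc35a1, Slc35b4 and Slc35a3.

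**Figure D2:**
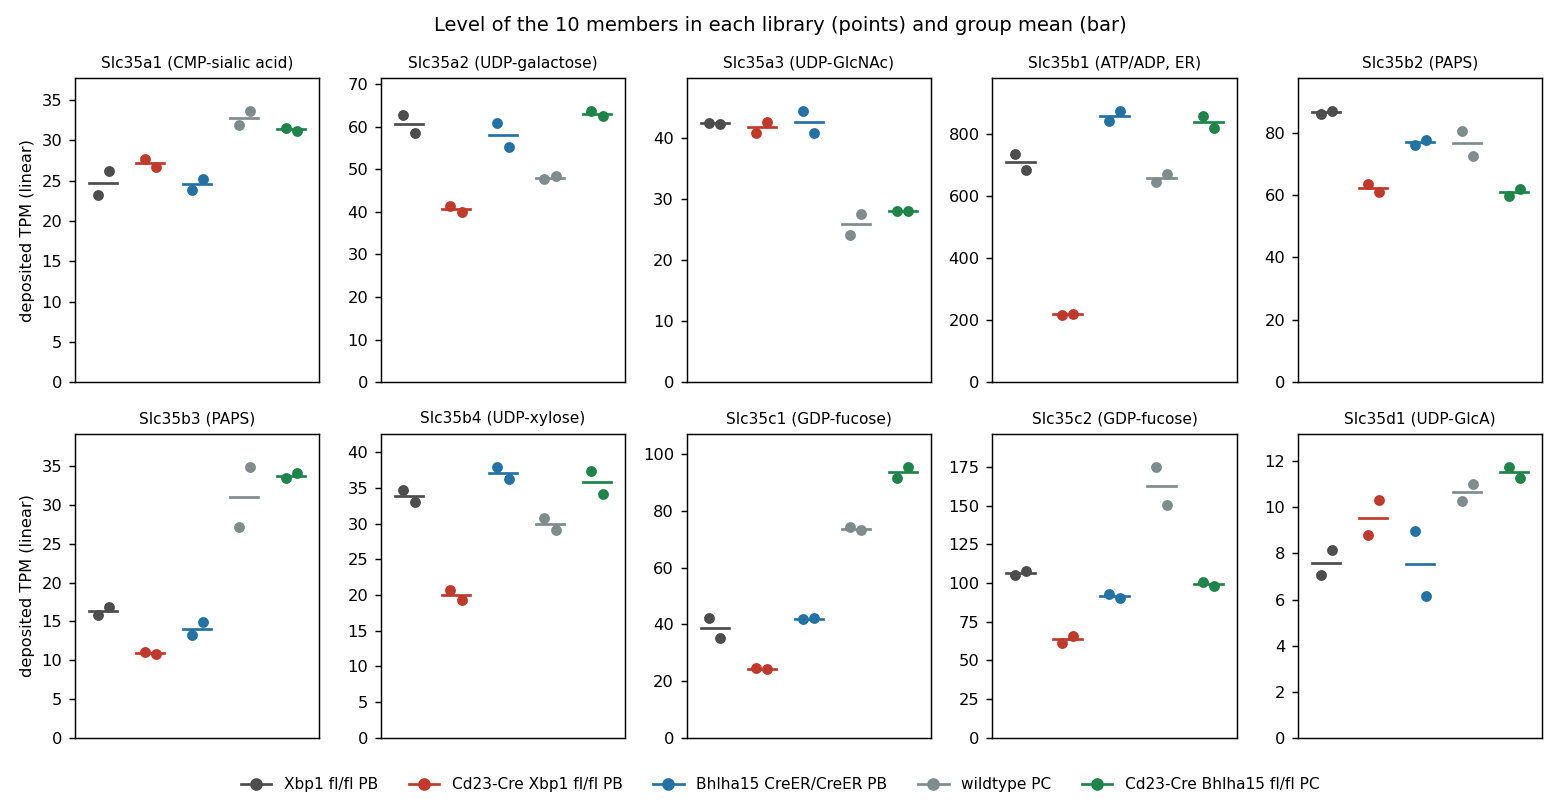
Deposited TPM (linear axis from 0, scaled for each gene) of the 10 members, with a point for each of the 2 libraries and a bar for the mean of each of the 5 groups. The 2 libraries of Xbp1-deficient PBs lie at 217 and 221 TPM for Slc35b1, below the other 8 libraries, and Slc35c2 is highest in wildtype PCs.

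Some values carry limits of counting. Slc35a3 shares 275 bp of exon with Hiat1 on the same strand, and reads from this stretch cannot be assigned to either gene. Slc35b4 shares 919 bp with Gm13856, Slc35b3 257 bp with 5033403F01Rik and Slc35a1 83 bp with 7SK, each on the opposite strand. The library kit keeps the strand, but whether it was used in counting is not given in the sources used here.

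Most of these transporters were lower in PBs from mice with deleted Xbp1. In Xbp1-deficient compared with control PBs, 7 of the 10 members were lower at an adjusted p under 0.05 (limma on log2 of scaled TPM plus 0.1), compared with 18% of the 12125 genes tested, and 0 were higher, compared with 10.3% of the genes tested and 0 members at an unadjusted p under 0.05. The median log2 fold change (log2FC) of the members was -0.78, compared with 0.0041 for all genes tested. By the study's thresholds (more than 3-fold, more than 5 TPM on average in the higher group, adjusted p under 0.05), 1 member was lower, compared with 1.63% of the genes tested. The other 6 fell by less than 2-fold. Over all genes the counts moved with the scaling, from 2186 lower and 1250 higher after the median of ratios to 1357 and 3423 on TPM as deposited, where the median of all genes rose by 0.21 on the log2 scale, and 1968 and 2517 after quantile normalization. The count of 7 lower members was the same under each of these scalings. The libraries are bulk samples, so that fewer cells of a type and less RNA per cell cannot be told apart. The 6 macrophage markers summed to 134 and 136 TPM in control PBs and 32.4 and 35.1 TPM in Xbp1-deficient PBs, with 2 of the 6 reaching 1 TPM in either. This difference was that of Cd68, with means of 130 and 17.8 TPM, whereas Lyz2 had means of 5.54 and 15.5 TPM and C1qa was listed at 0 in all 4 libraries. The summed fibroblast markers were 1069 and 1275 TPM in control PBs and 1647 and 1508 TPM in Xbp1-deficient PBs, and the part of these and of the macrophage and neutrophil transcripts in the result was not tested.

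Slc35b1, the ATP/ADP exchanger of the ER, showed the largest change of the members. It measured 737 and 684 TPM in control PBs and 217 and 221 TPM in Xbp1-deficient PBs. The libraries of the genotypes did not overlap. The log2FC of Slc35b1 was -1.91 ± 0.10 (SE; adjusted p = 5.37e-06, limma), a 3.75-fold decrease. The share of Slc35b1 in the summed TPM of the members fell to 42.0% and 42.3%, and the other 9 members together fell from 420 and 415 TPM to 300.1 and 300.7 TPM.

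Among the genes listed as users of ATP in the ER lumen, Hyou1 and Hspa13, members of the Hsp70 family, were lower in Xbp1-deficient PBs. Hyou1 measured 1206 and 1170 TPM in control PBs and 136 and 132 TPM in Xbp1-deficient PBs (log2FC -3.36 ± 0.09 SE, adjusted p = 1.60e-07, limma). Hspa13 had a log2FC of -3.27. Hspa5, which encodes the main ER chaperone BiP, did not pass the test, with a log2FC of 0.10 ± 0.18 (SE).

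The GDP-fucose transporter Slc35c1 and Slc35c2, which has been linked to GDP-fucose supply, both fell. Slc35c1, the Golgi transporter, measured 42.2 and 35.2 TPM in control PBs and 24.6 and 24.3 TPM in Xbp1-deficient PBs. Slc35c2 measured 105 and 108 TPM in the control and 61.4 and 65.8 TPM in the mutant PBs. Neither gene overlapped between the genotypes. The log2FC was -0.86 ± 0.12 (SE) for Slc35c1 and -0.95 ± 0.07 (SE) for Slc35c2, with adjusted p-values of 0.00100 and 4.18e-05 (limma). Of the 4 GDP-fucose synthesis genes tested, Gmds, the dehydratase that starts synthesis from GDP-mannose, was lower (log2FC -1.59), whereas the other 3 did not pass the test. Of the 7 fucosyltransferase genes tested, 3 were lower, compared with 18% of all genes tested. They included Fut8 (-0.95), which adds core fucose to N-glycans.

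Slc35a2, the UDP-galactose transporter, measured 62.8 and 58.5 TPM in control PBs and 41.4 and 39.9 TPM in Xbp1-deficient PBs. The groups did not overlap, and the log2FC was -0.78 ± 0.08 (SE; adjusted p = 0.000227, limma). Of the 9 genes tested that serve galactose transfer, 2 were lower and 1 was higher, shares near the 18% and 10.3% of all genes tested. The gene that was higher was B4galt1 (0.37), which adds galactose to N-glycans.

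The PAPS transporters Slc35b2 and Slc35b3 both fell. Slc35b2 decreased from 86.0 and 86.9 TPM to 63.4 and 60.8 TPM, with a log2FC of -0.68 ± 0.08 (SE; adjusted p = 0.000448, limma). Slc35b3 decreased from 15.9 and 16.9 TPM to 11.1 and 10.8 TPM, with a log2FC of -0.79 ± 0.12 (SE; adjusted p = 0.00194, limma). Neither gene overlapped between the genotypes. Both PAPS synthases were lower, Papss1 with a log2FC of -1.06. Of the 11 sulfotransferase genes 2 were lower and 1 was higher, shares near the 18% and 10.3% of all genes tested. Slc35b4, the UDP-xylose transporter, measured 34.6 and 33.1 TPM in control PBs and 20.8 and 19.4 TPM in Xbp1-deficient PBs, again without overlap (log2FC -0.96 ± 0.09 SE, adjusted p = 0.000114, limma). Uxs1, the synthase of UDP-xylose, and both xylosyltransferase genes did not pass the test.

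The remaining 3 members did not pass the test. Slc35a3, the UDP-GlcNAc transporter, measured 42.6 and 42.4 TPM in control PBs and 41.0 and 42.7 TPM in Xbp1-deficient PBs, with overlapping libraries. Its log2FC after scaling was -0.23 (95% confidence interval -0.40 to -0.06, adjusted p = 0.0515, limma). It passed the test with a filter of 5 TPM (0.0426) or with only these 2 groups (0.0389). Over the 9 alternatives other than leaving out a library, the log2FC of Slc35a3 ranged from -0.232 to -0.024. The adjusted p-values of these alternatives reached 0.816 in limma. Without Mist1-deficient PB replicate 1 or replicate 2, the log2FC was -0.23. The CMP-sialic acid transporter Slc35a1 measured 23.2 and 26.2 TPM in the control and 27.7 and 26.7 TPM in the mutant PBs. The deposited values of Slc35a1 were thus higher in the mutant, whereas its scaled log2FC was -0.06 (95% confidence interval -0.29 to 0.17). Slc35d1 measured 7.08 and 8.13 TPM in the control and 8.78 and 10.3 TPM in the mutant PBs, with a scaled log2FC of 0.12 (95% confidence interval -0.26 to 0.49). Deposited TPM did not overlap between these genotypes for 9 of the 10 members, including the uncalled Slc35a1 and Slc35d1, both higher in the mutant. A lack of overlap thus did not mark out the called members, and its share over all genes was not determined.

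The enzymes that make the donors of these 3 transporters differed from one another. All 3 CMP-sialic acid synthesis genes were lower, among them Cmas, the enzyme that joins sialic acid to CMP (log2FC -1.35). Of the 4 UDP-GlcNAc synthesis genes 3 were lower, with values of -1.82 for Pgm3, -1.71 for Gfpt1 and -1.41 for Uap1, the enzymes of the hexosamine pathway. Ugdh, which makes UDP-GlcA, had a log2FC of 0.16 and did not pass the test. Over all 19 donor synthesis genes tested, 10 were lower and 0 higher, with a median of -0.46, and at an unadjusted p under 0.05 in limma 11 were lower and 0 higher. Of 56 genes that use the donors, 20 were lower and 3 higher, with a median of -0.17. Of all genes tested in this contrast, 18% were lower and 10.3% higher, with a median of 0.0041. Among the nucleotidases that cleave the spent nucleotides in the lumen, 2 of 4 were lower, namely Entpd4 (-1.31) and Cant1 (-0.69).

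**Figure D3:**
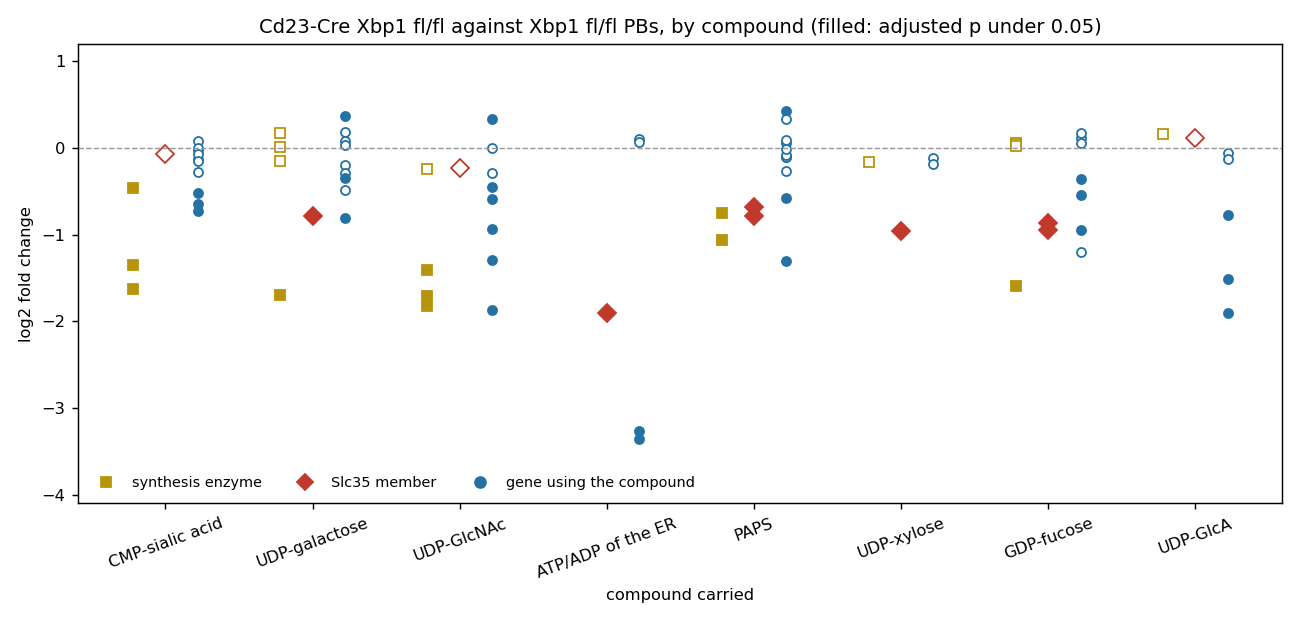
Log2 fold change between Xbp1-deficient and control PBs, grouped by the compound carried, for synthesis enzymes (yellow squares), members (red diamonds) and genes that use the compound (blue circles), filled where the adjusted p is under 0.05. The members range from -1.91 for Slc35b1 to 0.12 for Slc35d1, and Hyou1 and Hspa13 lie lowest at -3.36 and -3.27.

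No member passed the test in PBs without Mist1. In Mist1-deficient compared with control PBs, 0 of the 10 members passed an adjusted p under 0.05 in limma, compared with 0.272% of the genes tested lower and 0.0495% higher, and by the study's thresholds the count was also 0, compared with 0.033% of the genes tested lower and 0.0165% higher. An unadjusted p under 0.05 was reached by 2 members, 1 lower and 1 higher, compared with 692 lower and 575 higher of the 12125 genes tested. Slc35b1 was one of these, at 844 and 876 TPM compared with 737 and 684 TPM in control PBs. These libraries did not overlap, with a log2FC of 0.32 (95% confidence interval 0.09 to 0.55, adjusted p = 0.325, limma). The other was Slc35c2, at 93.2 and 90.0 TPM compared with 105 and 108 TPM, with a log2FC of -0.17 (95% confidence interval -0.35 to -0.0020, adjusted p = 0.472, limma). The log2FC values of the other 8 members lay between -0.18 and 0.18. Although 0 members were called, deposited TPM did not overlap for 5 of the 10, and the share over all genes was not determined. Among the 19 donor synthesis and 56 donor use genes tested, 0 passed the test, with 3 and 4 at an unadjusted p under 0.05.

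As Xbp1-deficient PBs also had little Bhlha15 transcript, both mutant genotypes were compared directly. Both share their control libraries in the comparisons above, and these controls enter the present contrast only through the scaling and the estimate of the spread. Of the 10 members, 8 were lower in Xbp1-deficient than in Mist1-deficient PBs, compared with 17.8% of the genes tested, and 0 were higher, compared with 9.34% of the genes tested and 0 members at an unadjusted p under 0.05 in limma. Over all genes, 2155 were lower and 1132 higher, a split that was 1266 and 3977 on TPM as deposited, with a median shift of 0.26 on the log2 scale, and 1854 and 2333 after quantile normalization. The log2 difference of Slc35b1 was -2.22 ± 0.10 (SE; adjusted p = 2.59e-06, limma), a 4.67-fold lower level, and Slc35b1 was the 1 member past the study's thresholds, compared with 1.66% of the genes tested. Slc35b4 differed by -1.14, Slc35c1 by -1.03, Slc35c2 by -0.78 and Slc35a2 by -0.76. The eighth was Slc35a3, with a log2 difference of -0.28 (adjusted p = 0.0264, limma), and its deposited values of 41.0 and 42.7 TPM overlapped with the 44.5 and 40.9 TPM of Mist1-deficient PBs. It did not pass the test on TPM as deposited (-0.03, adjusted p = 0.762, limma), with only the 2 groups compared (0.0535), or without any single library other than Mist1-deficient PB replicate 1, with adjusted p-values of 0.0514 to 0.137.

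In PCs without Mist1, members changed in both directions and by less than 2-fold. Of the 10 members, 3 were higher in Mist1-deficient than in wildtype PCs, compared with 13.3% of the 12028 genes tested. Another 2 were lower, compared with 16.2%, so that the share of lower members was near that of all genes tested. By the study's thresholds 0 members differed, compared with 0.723% of the genes lower and 0.125% higher. The summed level of the 7 neutrophil markers was 938 and 439 TPM in wildtype PCs and 802 and 535 TPM in mutant PCs, and that of the 8 mature B cell markers was 1003 and 1358 TPM and 792 and 871 TPM, and their part in the result was not tested.

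Slc35c2 showed the largest change of the members in PCs. It measured 175 and 151 TPM in wildtype and 101 and 98.2 TPM in Mist1-deficient PCs, without overlap. Its log2FC was -0.69 ± 0.10 (SE; adjusted p = 0.00616, limma), a 1.61-fold decrease. Wildtype PCs held the highest level of Slc35c2 among the 5 groups. Leaving out each PC library in turn gave values from -0.83 to -0.55, with adjusted p-values of 0.000599 to 0.0467.

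The GDP-fucose transporter Slc35c1 moved the opposite way to Slc35c2. It measured 74.2 and 73.3 TPM in wildtype and 91.5 and 95.7 TPM in mutant PCs, without overlap (log2FC 0.36 ± 0.06 SE, adjusted p = 0.0108, limma). Slc35a2 rose from 47.8 and 48.3 TPM to 63.7 and 62.4 TPM (0.41 ± 0.06 SE, adjusted p = 0.00634, limma). Slc35b1 rose from 647 and 673 TPM to 860 and 820 TPM, or from 56.3% and 58.3% to 65.3% and 64.2% of the summed TPM of the members. The log2FC of Slc35b1 was 0.37 ± 0.06 (SE; adjusted p = 0.00842, limma). The libraries did not overlap for either gene. These 3 calls were lost when either library of Mist1-deficient PCs was left out, with adjusted p-values of 0.0592 and 0.0624 for Slc35a2, 0.108 and 0.0832 for Slc35b1 and 0.0583 and 0.106 for Slc35c1 without replicate 1 and replicate 2.

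Slc35b2, the more abundant PAPS transporter, fell from 80.5 and 72.6 TPM in wildtype to 59.6 and 62.02 TPM in mutant PCs, without overlap. The log2FC was -0.31 ± 0.09 (SE; adjusted p = 0.0416, limma). This call was lost without wildtype PC replicate 1 (adjusted p = 0.0579) and without mutant replicate 1 or replicate 2 (adjusted p = 0.199 and 0.152). Slc35b4 measured 30.8 and 29.2 TPM in wildtype and 37.4 and 34.2 TPM in mutant PCs and did not pass the test (0.27, 95% confidence interval 0.06 to 0.48, adjusted p = 0.0583, limma). It passed after quantile normalization (0.0459), with a filter of 5 TPM (0.0465), with all 10 libraries in 1 fit (0.0331) and without wildtype PC replicate 1 (0.0332). The log2FC values of Slc35a1, Slc35a3, Slc35b3 and Slc35d1 lay between -0.04 and 0.15, and these genes did not pass the test. Deposited TPM did not overlap between the PC groups for 9 of the 10 members, including the uncalled Slc35a1, Slc35a3, Slc35b4 and Slc35d1. The share over all genes was not determined. Without wildtype PC replicate 2, Slc35b3 reached 0.304 and passed (adjusted p = 0.026, limma), whereas its lowest value with a library left out was 0.000552.

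Genes that make or use the donors were more often higher than lower in Mist1-deficient PCs. Of the 19 donor synthesis genes tested, 9 were higher and 1 was lower, with a median log2FC of 0.29 compared with 0.01 for all genes tested. Of all genes tested in PCs, 13.3% were higher and 16.2% lower. Gne and Nans, which act in sialic acid synthesis, moved in opposite directions, with values of 0.72 and -0.82. Papss2, a PAPS synthase, was also higher (1.51), at 0.899 and 0.530 TPM in wildtype and 2.13 and 2.12 TPM in mutant PCs. It is among the 9 higher genes but reached the 1 TPM of the filter only in the mutant libraries. Of 55 genes that use the donors, 12 were higher and 3 lower, with a median of 0.05, close to the 0.01 of all genes tested. The 3 lower genes were the heparan sulfate enzymes Hs2st1 (-2.01) and Ndst1 (-1.03) and the fucosyltransferase Fut4 (-0.33). Fut11 (0.84), Csgalnact1 (0.80) and St6galnac6 (0.74) had the largest increases.

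**Figure D4:**
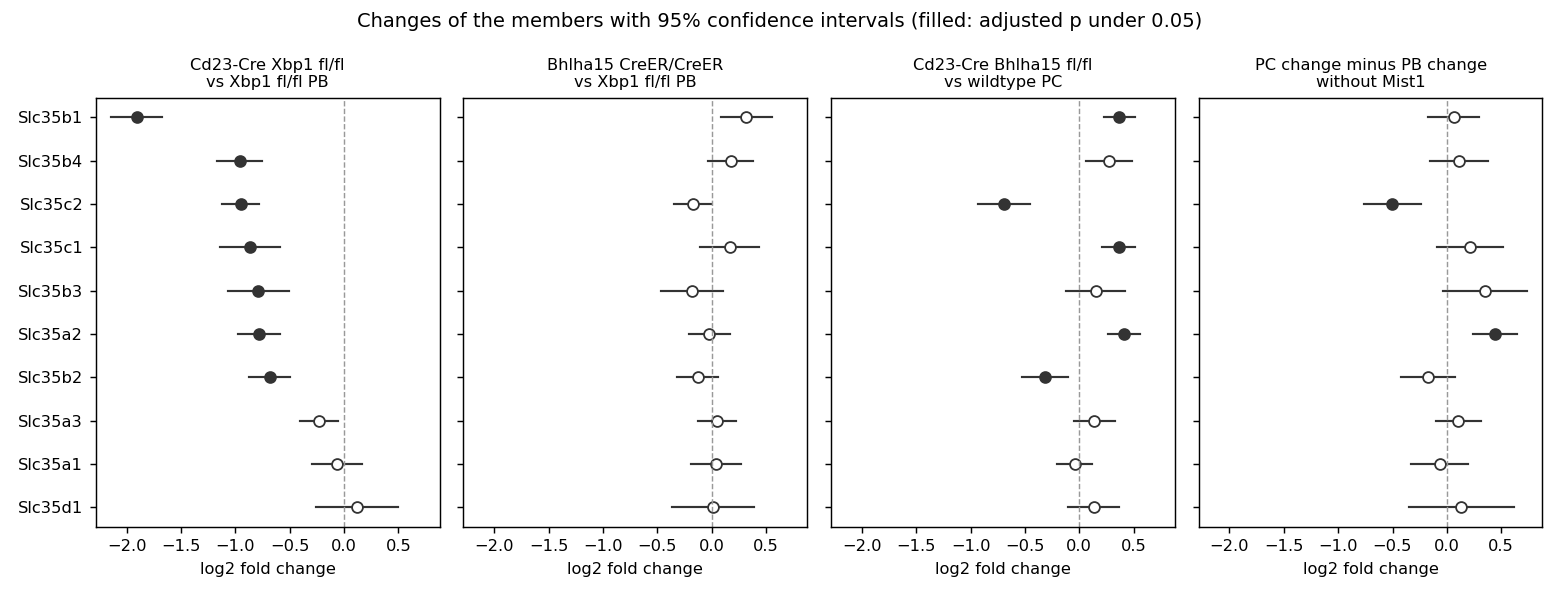
Log2 fold change of each member (circle, filled where the adjusted p is under 0.05) with its 95% confidence interval (line) for loss of Xbp1 in PBs, loss of Mist1 in PBs, loss of Mist1 in PCs and the difference between the last 2, on a common axis. In the first panel 7 members are filled, all below 0, and in the third 3 are filled above 0 and 2 below.

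Whether the changes without Mist1 differed between PCs and PBs was tested with an interaction contrast over all 10 libraries. The change of Slc35a2 was higher in PCs than in PBs by 0.44 ± 0.09 (SE, log2 scale; adjusted p = 0.0260, limma), and that of Slc35c2 was lower by 0.50 ± 0.12 (SE; adjusted p = 0.0395, limma). Thus 1 of the 10 members was called in each direction, compared with 1.94% of the genes tested higher and 4.17% lower. These shares stand for 257 and 552 genes, which became 533 and 687 after quantile normalization. By the study's thresholds 0 members differed, compared with 0.0831% of the genes higher and 0.317% lower. For Slc35b1, the difference between the changes was 0.06 (95% confidence interval -0.17 to 0.29, adjusted p = 0.791, limma). Its log2FC was 0.32 in PBs, where it did not pass the test, and 0.37 in PCs, where the call was lost without either mutant library. The call of Slc35c2 was lost when any library other than wildtype PC replicate 2 was left out, with adjusted p-values up to 0.13. That of Slc35a2 was lost without control PB replicate 1, Mist1-deficient PB replicate 2, wildtype PC replicate 1 or either library of Mist1-deficient PCs, with adjusted p-values up to 0.0969. The alleles, the controls, the culture and the sort also differ between the stages and cannot be told apart from the stage.

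The levels in wildtype PCs and control PBs are set side by side here as a difference between these libraries, because cell source, sort and experiment cannot be told apart. All 10 members passed an adjusted p under 0.05 in limma, 5 higher and 5 lower in PCs, compared with 37.6% and 38.4% of the 13230 genes tested. By the study's thresholds 0 members differed, compared with 7.77% higher and 6.19% lower. Slc35c1 (log2 difference 0.82), Slc35b3 (0.79) and Slc35c2 (0.50) were higher in PCs, with smaller values for Slc35d1 (0.37) and Slc35a1 (0.30). Slc35a3 was the furthest lower (-0.83), followed by Slc35a2 (-0.45), Slc35b2 and Slc35b4 (both -0.29) and Slc35b1 (-0.22). On TPM as deposited, where the median of all genes shifted by 0.12, Slc35b1 and Slc35b4 did not pass the test, and after quantile normalization Slc35b1 and Slc35d1 did not. The call of Slc35d1 (adjusted p = 0.0485, limma) was also lost with a pseudocount of 0.01, without the filter and without the eBayes trend (0.0519 to 0.0645), and without any single library other than those of Mist1-deficient PBs (0.0557 to 0.21). The summed fibroblast markers, 1069 and 1275 TPM in these PBs and 2.57 and 2.84 TPM in the PCs, moved with this contrast, and their part in it was not tested. The synthesis enzyme Ugdh, at 86.5 and 96.6 TPM in these PBs and 17.0 and 16.0 TPM in the PCs, differed by -2.58.

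The genes whose profile over the 5 group means was most like that of Slc35b1 were taken by Euclidean distance of centred log2 means among 9859 genes with a mean of at least 5 TPM. These were Pgm3 (distance 0.20), a hexosamine pathway enzyme, Lman1 (0.21), a cargo receptor between ER and Golgi, BC004004 (0.24), Rnf130 (0.25) and Dhdds (0.27), a subunit of the enzyme that makes the dolichol backbone. Slc35c1, whose group means spanned the second widest range after Slc35b1 (1.99 compared with 2.16 on the log2 scale), was nearest to Slc9a8 (0.13), Zfp446 (0.14), Mpc2 (0.15), Selm (0.17) and Sharpin (0.20). Among the members themselves, the shortest distances were those between Slc35a1 and Slc35d1 (0.24), Slc35a2 and Slc35b4 (0.30) and Slc35b3 and Slc35c1 (0.35). Slc35a3 and Slc35c1 were furthest apart (2.20).

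**Figure D5:**
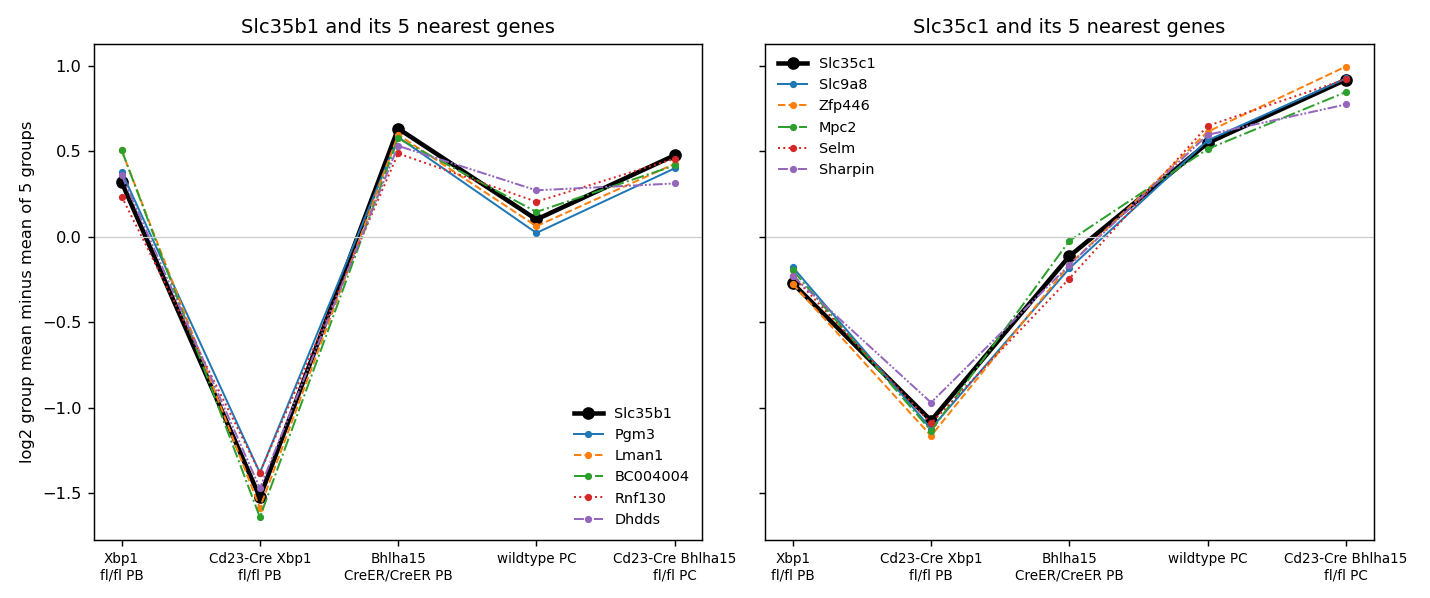
Log2 group means of scaled TPM, minus the mean of the 5 groups, for Slc35b1 (left, black) and Slc35c1 (right, black) with the 5 nearest genes of each (coloured lines, which only join the groups). Slc35b1 is lowest in Xbp1-deficient PBs, and Slc35c1 is higher in both PC groups than in the PB groups.

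The other genes of the Slc35 family, many of which encode proteins with no well-established substrate, were taken as a further list. Of 13 tested in PBs, 4 were lower and 1 was higher in Xbp1-deficient than in control PBs, compared with 18% and 10.3% of all genes tested. The median log2FC of these 13 was -0.09 compared with -0.78 for the 10 members. Slc35e1 fell from 81.8 and 79.99 TPM to 33.9 and 31.3 TPM (-1.52), Slc35f5 by -1.44 and Slc35a4 by -0.80, and Slc35d2 rose from 7.28 and 8.12 TPM to 16.1 and 15.8 TPM (0.84). In Mist1-deficient PBs, 0 of these 13 passed the test in limma, with 1 at an unadjusted p under 0.05. Of 12 tested in PCs, 3 were lower and 1 was higher in Mist1-deficient than in wildtype PCs, compared with 16.2% and 13.3% of all genes tested. Slc35f5 fell from 25.8 and 23.3 TPM to 9.14 and 9.51 TPM (-1.36), Slc35e3 by -1.23 and Slc35g1 by -0.85, and Slc35a4 rose by 0.32.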

How the data were processed

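RNA-seq libraries were made by the authors with the NEBNext Ultra II Directional kit. The authors trimmed reads with cutadapt, aligned them to mm9 with STAR 2.4.2, assigned them to genes with featureCounts 1.5 and deposited TPM, from which immunoglobulin and T cell receptor genes had been removed. As every library adds up to 1000000 TPM, the depth is unknown and no counting intervals are given. Peak positions were deposited by the authors, who used Bowtie 1.0.0 and MACS.

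TPM were scaled by the median of ratios. Genes that reached 1 TPM in 2 or more libraries entered the fit of log2(scaled TPM + 0.1) by limma 3.58.1 (R 4.3.3; lmFit, eBayes with trend), which was tested on simulated data. The 6 PB libraries were fitted together, the 4 PC libraries likewise, and all 10 for contrasts across stages. Tests were two-sided, with Benjamini-Hochberg adjustment over all genes. The added 0.1 shrinks fold changes of low genes. Read counts, on which the authors ran DESeq2, were not used here. Whether the 2 libraries of a group came from separate mice is not given in the labels, so that p-values measure the spread between these samples.

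Python 3.11.15, pandas 2.3.3 and matplotlib 3.10.9 were used. Gene positions came from GENCODE release M1 (mm9) and promoters from RefSeq (GRCm38.p6). The members and gene lists were chosen with earlier results of these data known. All members are named, and of each list the genes past the test with the 3 largest changes in each direction, the enzymes of a described donor and some others chosen after their values were seen. In the lists of donor synthesis, donor use and other Slc35 genes, 3, 4 and 3 names carry a suffix in the files whose meaning is not given; no member does. One gene of these lists and one marker of the sort are not reported here. Alternatives were other scalings, pseudocounts, filters, fits and peak rules, and each library left out.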

Additional observations from a re-analysis of the deposited data

Results flagged for a closer look

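The effect of Mist1 loss differed between PCs and PBs for 2 members in a test of the difference itself. For Slc35a2, the UDP-galactose transporter, the log2FC was 0.41 in PCs and -0.02 in PBs, a difference of 0.44 (adjusted p = 0.0260, limma over all 10 libraries). For Slc35c2, linked to GDP-fucose supply, it was -0.69 in PCs and -0.17 in PBs, a difference of -0.50 (adjusted p = 0.0395, limma). In PCs, both mutant libraries lay above both wildtype libraries for Slc35a2 and below them for Slc35c2. As 9 of the 10 members did not overlap between these PC groups, this does not mark out these 2 genes. Leaving out single libraries gave differences of 0.37 to 0.52 for Slc35a2, with adjusted p-values of 0.037 to 0.0969, and of -0.64 to -0.36 for Slc35c2, with adjusted p-values of 0.00625 to 0.13, so that both calls depend on single libraries while the direction held in all of them.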

How the results depend on the processing

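No paired analysis was possible because the labels carry no replicate numbers that the groups share. Under the alternatives, the counts of 7 lower members without Xbp1 and of 0 called members in Mist1-deficient PBs stayed within 1.5 times, and leaving out a library gave 7 to 8 and 0. Against Mist1-deficient PBs, 7 to 8 members were lower in Xbp1-deficient PBs when a library was left out.

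The counts in PCs were less stable. Without a low-value filter or without the eBayes trend, 1 member was lower in Mist1-deficient PCs, and leaving out a library gave 1 to 2 lower and 0 to 4 higher members. The cause was not tested. Between wildtype PCs and control PBs, 3 members were lower on TPM as deposited, and leaving out a library gave 2 to 5 lower and 3 to 5 higher members; the lowest counts were those without wildtype PC replicate 2 (2 lower) and without control PB replicate 1 (3 lower and 3 higher). In the interaction contrast, 0 members were lower without the filter, 0 were lower and 0 higher without the trend, and leaving out a library gave 0 to 1 in each direction.

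Changes of sign were seen only for members that did not pass the test. On TPM as deposited, Slc35a1 had log2FC values of 0.143 without Xbp1, -0.00553 in Mist1-deficient PBs and 0.149 between the mutants, and Slc35d1 had -0.03 in Mist1-deficient PBs. After quantile normalization, Slc35a1 had 0.0131 without Xbp1. With a library left out, values in Mist1-deficient PBs ranged from -0.0768 to 0.158 for Slc35a1, -0.113 to 0.0745 for Slc35a2, -0.00806 to 0.338 for Slc35c1 and -0.176 to 0.207 for Slc35d1. Between the mutants they ranged from -0.22 to 0.0143 for Slc35a1 and -0.0865 to 0.297 for Slc35d1. In the interaction they ranged from -0.159 to 0.0295 for Slc35a1, -0.018 to 0.143 for Slc35b1 and -0.0792 to 0.35 for Slc35d1. A start-site distance of 2.5 kb or an overlap of 50% left 6 members with a Mist1 region, and each experiment alone gave 7.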
